A study of Homo sapiens with 21 samples.

Results

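YAP1, the TEAD factors TEAD1 and TEAD4, and 7 genes that are commonly read out as their targets or feedback regulators (CCN1, CCN2, ANKRD1, AMOTL2, AJUBA, CRIM1 and LATS2) were followed by RNA-seq in BT-549 cells, an established triple-negative breast cancer (TNBC) line. These 10 genes were found by their Ensembl identifiers among the 42339 genes of the count table, and each matched 1 row. The 21 libraries fall into 7 groups of 3. Untransduced BT-549 cells were grown as 2D monolayers, as 3D mammospheres at passage 6, and as passage 6 mammospheres treated with 0.75 µmol/L GO-203, a cell-penetrating peptide inhibitor of the MUC1-C subunit. Passage 6 mammospheres carrying a tetracycline-inducible MUC1 shRNA (tet-MUC1shRNA) received 0.1% DMSO as vehicle or 500 ng/ml doxycycline (DOX). Passage 8 mammospheres carrying an inducible MYC shRNA (tet-MYCshRNA) received the same vehicle or DOX. By the study's methods, monolayers grew in RPMI medium with fetal bovine serum and insulin. Mammospheres grew in MammoCult medium in ultra-low attachment plates, which the study describes as serum-free growth. No group of DOX-treated cells with a control shRNA was analysed here, so silencing and DOX itself cannot be told apart. The replicates of a group were cultures of this line grown in triplicate, by the study's methods, so p-values measure the spread between cultures of 1 line.

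YAP1 encodes YAP, a transcriptional coactivator that has no DNA-binding domain and reaches its target genes through the TEAD family. In the Hippo pathway the MST kinases activate the LATS kinases, which phosphorylate YAP and its paralog TAZ (gene WWTR1) and keep them out of the nucleus. Several target genes feed back on the pathway, among them LATS2, a kinase that inhibits YAP, and AMOTL2, an angiomotin that binds YAP. In breast epithelium YAP and TAZ respond to cell density, attachment and matrix stiffness. RNA levels do not report where the YAP protein is or whether it is phosphorylated.

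The TEAD recognition motif was searched for in the promoters, to show where the factors could meet these genes. RefSeq promoter windows of 300 bases on GRCh38.p14 were at hand for 6 of the 10 genes. TEAD1, TEAD4, CCN1 and CRIM1 had no entry. The letters GGAATG, on either strand (CATTCC on the other), occurred in 14.0% of all 35116 RefSeq promoter windows of this length, at least 2 times in 1.37% and at least 3 times in 0.128%. All 6 genes had a match in at least 1 window. CCN2 held 3 matches, 169, 104 and 95 bases before its start, and ANKRD1 held 2, at 220 and 128 bases. YAP1 itself held 1, at 162 bases. The second annotated start of AMOTL2 and that of AJUBA each had 1 match, at 69 and 59 bases, and LATS2 had 1 that begins just after its start. The AP-1 letters TGAGTCA or TGACTCA, present in 4.95% of all windows, were in none of these 6 genes' windows. The E-box CACGTG, bound by MYC and other factors and present in 7.26% of all windows, was found in YAP1 and LATS2. The 250 bases before the start are printed for the genes with the most matches and for YAP1, with the TEAD letters in capitals, on the strand of the gene. They lie at chr6:131951373-131951622 on the minus strand for CCN2, chr10:90921088-90921337 on the minus strand for ANKRD1 and chr11:102110197-102110446 on the plus strand for YAP1. A match describes letters, not binding, which was not measured in these data.
CCN2: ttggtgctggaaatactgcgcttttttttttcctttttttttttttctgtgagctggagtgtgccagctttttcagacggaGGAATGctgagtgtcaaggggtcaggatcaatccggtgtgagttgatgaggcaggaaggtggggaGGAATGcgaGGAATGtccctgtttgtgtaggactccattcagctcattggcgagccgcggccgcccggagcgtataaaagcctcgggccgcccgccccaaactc
ANKRD1: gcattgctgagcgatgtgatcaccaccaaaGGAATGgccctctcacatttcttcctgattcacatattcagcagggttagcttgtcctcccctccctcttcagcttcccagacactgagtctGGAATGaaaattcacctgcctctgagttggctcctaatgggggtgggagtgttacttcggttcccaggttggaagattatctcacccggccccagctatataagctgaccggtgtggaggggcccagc
YAP1: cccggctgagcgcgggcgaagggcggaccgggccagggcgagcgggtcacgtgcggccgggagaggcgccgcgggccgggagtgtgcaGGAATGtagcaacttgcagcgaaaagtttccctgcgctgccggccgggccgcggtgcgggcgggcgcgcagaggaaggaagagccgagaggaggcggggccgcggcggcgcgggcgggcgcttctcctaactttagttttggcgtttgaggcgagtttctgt

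Library totals ran from 38026597 to 99751717 counts, so counting error is small for most of these genes. The exceptions are ANKRD1 and, in DOX tet-MYCshRNA, AJUBA with 80, 142 and 179 reads. Levels are given as counts per 1000000 (CPM) scaled by TMM factors over the 21 libraries. Of the 3 receptor genes, ESR1 was at most 1.48 and PGR at most 0.068 CPM, while ERBB2 was read at 18.4 to 42.0 CPM. Of the 6 epithelial markers, EPCAM stayed at or below 0.125 and CDH1 at or below 1.51 CPM, while the 4 mesenchymal markers were all read and varied widely, VIM between 1076 and 2486, FN1 between 441 and 13252, CDH2 between 11.3 and 452 and ZEB1 between 88.0 and 339 CPM. The summed mesenchymal level moved with the groups as well, from 2152 to 2176 CPM in 2D cells, 8008 to 8493 in 3D cells and 8028 to 8575 with GO-203. It was 11358 to 12430 in vehicle and 8380 to 8731 in DOX tet-MUC1shRNA, and 7799 to 8082 in vehicle and 13967 to 15671 CPM in DOX tet-MYCshRNA, and its part in the results was not tested. The summed epithelial level moved with the groups, from 1.81 to 2.14 CPM in 2D cells, 23.0 to 26.8 in 3D cells and 91.6 to 98.4 CPM under GO-203. It was 0.964 to 1.81 in vehicle and 17.2 to 19.5 in DOX tet-MUC1shRNA, and 4.001 to 6.70 in vehicle and 54.6 to 73.2 CPM in DOX tet-MYCshRNA. KRT5, with up to 97.8 CPM, carried most of it where it was high, and its part in the results was not tested. The 5 immune and endothelial markers summed to at most 10.4 CPM in any library. The 6 tet-MUC1shRNA libraries stood apart: processed pseudogenes took 0.753% to 1.03% of their counts, against 0.337% to 0.627% in the other 15. The share also differed within the line, at 0.954% to 1.03% with vehicle and 0.753% to 0.805% with DOX, without overlap. The mtDNA share moved with the groups of each comparison. It was 5.21% to 5.24% in 2D cells, 2.31% to 2.72% in 3D cells and 3.34% to 4.40% with GO-203. It was 2.60% to 2.78% in vehicle and 6.36% to 6.72% in DOX tet-MUC1shRNA, and 3.37% to 4.08% in vehicle and 3.96% to 5.07% in DOX tet-MYCshRNA. Each pair was also fitted with the mtDNA genes left out of the scaling. On MUC1 silencing 6024 genes were then called higher and 5996 lower, against 5892 and 6070. Under GO-203 it was 2023 and 2446, against 2059 and 2393. In 3D vs. 2D cells it was 6108 and 6128, against 6140 and 6083. On MYC silencing it was 6043 and 5615, against 6053 and 5612. Beyond the scaling, the part of the mtDNA share in the results was not tested. The targeted genes moved as labelled. MUC1 fell by 2.06 on the log2 scale with DOX in tet-MUC1shRNA (SE 0.07, adjusted p = 2.97e-15), and MYC fell by 0.62 with DOX in tet-MYCshRNA (SE 0.08, adjusted p = 9.05e-05). MUC1 was called higher under GO-203 (log2 fold change 0.33, SE 0.07, adjusted p = 0.00191) and on MYC silencing (1.25, SE 0.11, adjusted p = 5.06e-06). In bulk RNA, fewer cells of a type and less RNA per cell cannot be told apart.

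**Figure D1:**
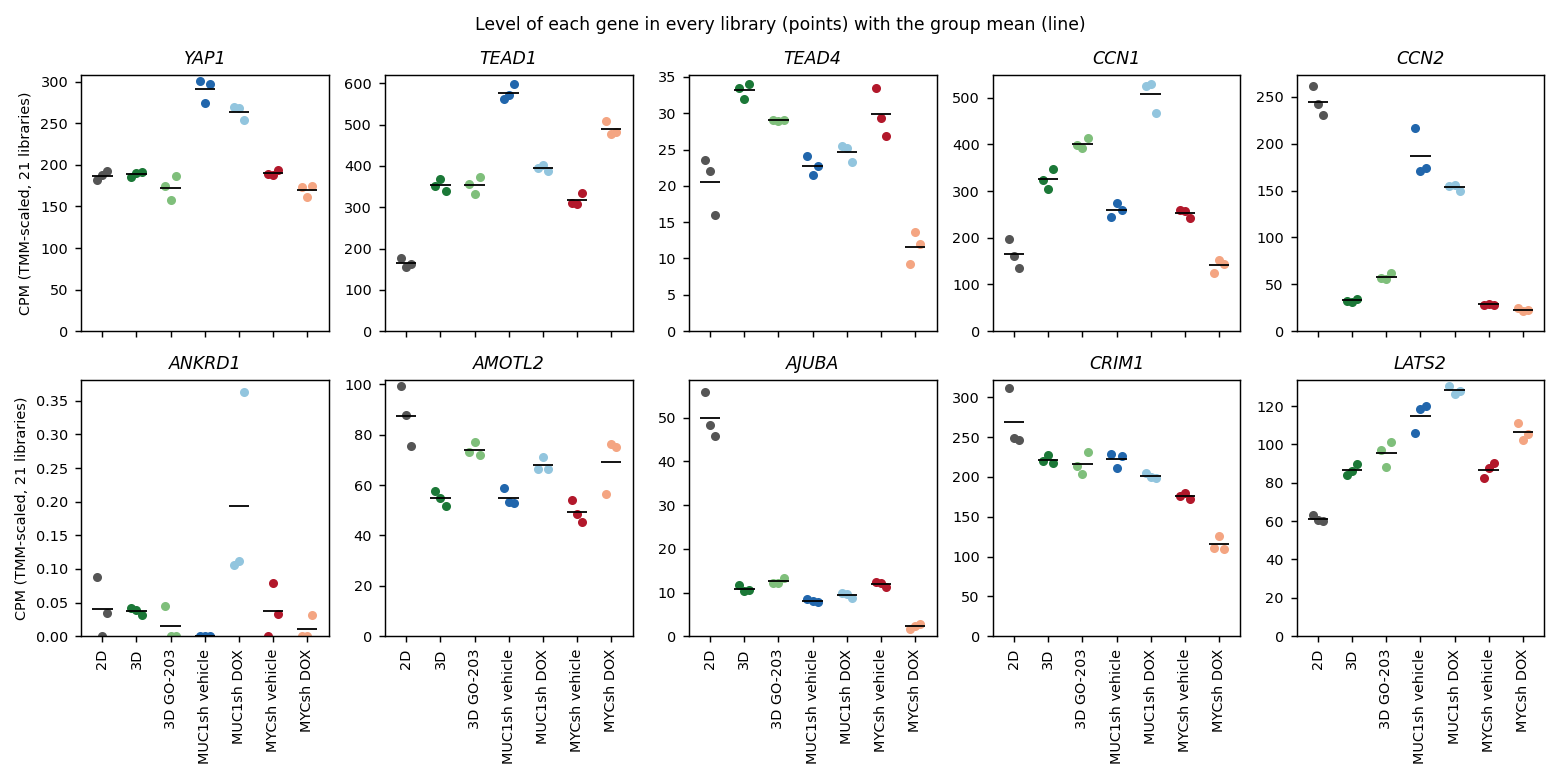
Level of each gene in every library, in CPM on linear axes, with 1 point a library and a bar for the mean of the 3 libraries of a group. CCN2 falls into 3 bands, with 2D and tet-MUC1shRNA libraries at 149 CPM or more, GO-203 between 55.7 and 62.2, and the others at 34.6 or less. ANKRD1 reaches at most 0.363 CPM.

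YAP1 RNA was among the steadiest of the 10. It was read at 182, 188 and 192 CPM in 2D cells and at 186, 190 and 192 CPM in 3D cells. These ranges overlap almost entirely, and the log2 fold change for 3D vs. 2D cells was 0.01 (SE 0.05; adjusted p = 0.885, edgeR's quasi-likelihood test with Benjamini-Hochberg adjustment over all genes tested). GO-203 gave 174, 158 and 186 CPM, a log2 fold change of -0.10 from the 3D libraries (SE 0.06, adjusted p = 0.271), and the highest treated library reached the lowest control. The tet-MUC1shRNA line sat above all other groups, at 302, 274 and 298 CPM with vehicle and 270, 268 and 254 with DOX. YAP1 fell by 0.12 there (SE 0.04, adjusted p = 0.0268), and no DOX library reached the lowest vehicle library. That call was lost in 4 of 16 alternatives, in 1 of them with the sign turned, and 1 was leaving out DOX replicate 3. The tet-MYCshRNA libraries went from 189, 188 and 194 CPM to 174, 161 and 175, a log2 fold change of -0.18 (SE 0.06, adjusted p = 0.0232) with no overlap. The highest group mean, 291 CPM in vehicle tet-MUC1shRNA, was 1.71 times the lowest, 170 CPM in DOX tet-MYCshRNA. Only the top 2 of the 7 groups in that order, vehicle and DOX tet-MUC1shRNA, separate from the group next below them. YAP1 lies on chromosome 11 (102110447 to 102233424, GRCh38, plus strand), 10.1% of its exon bases lie opposite antisense genes, and it has 3 named pseudogenes, so part of its count can depend on strand and multi-mapping settings that are not given in the sources used here. The higher YAP1 level in tet-MUC1shRNA cells goes with the pseudogene share of those libraries, and the line and that difference cannot be told apart. Within the line YAP1 and the share were both lower with DOX, and the part of the share in that change was not tested.

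The genes whose levels were most like that of YAP1 over the 21 libraries, among 10003 genes with a median of at least 5 CPM, were HNRNPA1P7 (Pearson r = 0.976), RPL21P16 (0.968), HNRNPA1L3 (0.966), EEF1A1P5 (0.959) and RPL39P3 (0.956). All 5 were high in the tet-MUC1shRNA libraries, as EEF1A1P5 shows with a mean of 2741 CPM with vehicle and 1759 with DOX, against 206 in 2D and 281 in 3D cells. They are pseudogenes or a near-identical gene copy of highly expressed genes, and their counts depend on how reads with several matches were assigned. The likeness describes libraries that share a line and carries no test.

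TEAD1 varied more than its partner. It was read at 178, 156 and 162 CPM in 2D cells and at 353, 370 and 339 CPM in 3D cells, with every 3D library far above every 2D library. TEAD1 was upregulated in 3D vs. 2D cells by a log2 fold change of 1.09 (SE 0.06, adjusted p = 2.49e-10). GO-203 left it at 356, 333 and 373 CPM, a log2 fold change of 0.03 (SE 0.06, adjusted p = 0.758), and the treated and control libraries interleave. MUC1 silencing took TEAD1 from 561, 571 and 599 CPM to 395, 401 and 389. The log2 fold change was -0.52 (SE 0.04, adjusted p = 4.46e-10), and the DOX libraries lay close together and far below the vehicle libraries. MYC silencing went the other way, from 311, 309 and 334 CPM to 509, 477 and 482, a log2 fold change of 0.60 (SE 0.06, adjusted p = 1.61e-05) with no overlap.

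TEAD4 was the lower of these TEADs per length in each group and followed another course. It was read at 23.5, 22.0 and 16.0 CPM in 2D cells and at 33.5, 31.9 and 34.1 CPM in 3D cells, an increase of 0.69 (SE 0.11, adjusted p = 3.52e-05) without overlap. That call was lost when vehicle tet-MUC1shRNA mammospheres took the place of the 3D libraries (0.15, adjusted p = 0.256). GO-203 gave 29.1, 28.9 and 29.1 CPM, all below the 3D libraries, at a log2 fold change of -0.16 (SE 0.06, adjusted p = 0.0798). That call was lost in 8 of 16 alternative analyses. With MUC1 silencing TEAD4 went from 24.1, 21.5 and 22.7 CPM to 25.5, 25.2 and 23.3. The groups overlap, and the log2 fold change of 0.14 (SE 0.07, adjusted p = 0.0855) lost its call in 9 of 16 alternatives and was 0.09 (adjusted p = 0.323) without vehicle replicate 2. MYC silencing lowered TEAD4 from 33.5, 29.4 and 26.8 CPM to 9.20, 13.7 and 12.01, a log2 fold change of -1.38 (SE 0.14, adjusted p = 1.96e-05). The 3 DOX libraries lay below every other library of the series.

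The balance of the 2 TEADs can be read within a library. The ratio of TEAD4 to TEAD1 reads per exon base averaged 0.583 in 2D cells (0.465 to 0.664), 0.442 in 3D cells (0.406 to 0.473) and 0.386 with GO-203 (0.367 to 0.408), and neighbouring ranges overlap. It averaged 0.186 in vehicle and 0.293 in DOX tet-MUC1shRNA, with every DOX library (0.282 to 0.303) above every vehicle library (0.177 to 0.202). In tet-MYCshRNA it averaged 0.444 with vehicle (0.377 to 0.507) and 0.112 with DOX (0.0850 to 0.135), which do not overlap. The ratio of TAZ RNA (WWTR1) to YAP1 per exon base averaged 1.18 in 2D and 2.45 in 3D cells, 3.22 with GO-203, 1.13 and 1.83 in vehicle and DOX tet-MUC1shRNA, and 1.95 and 3.48 in vehicle and DOX tet-MYCshRNA. So in each of these comparisons the balance lay further toward WWTR1 in 3D than in 2D cells and in treated than in control mammospheres, with no overlap between the groups of 3 libraries. Vehicle tet-MUC1shRNA mammospheres, at 1.11 to 1.15, did not show that shift and overlapped the 2D cells, at 1.14 to 1.23.

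**Figure D2:**
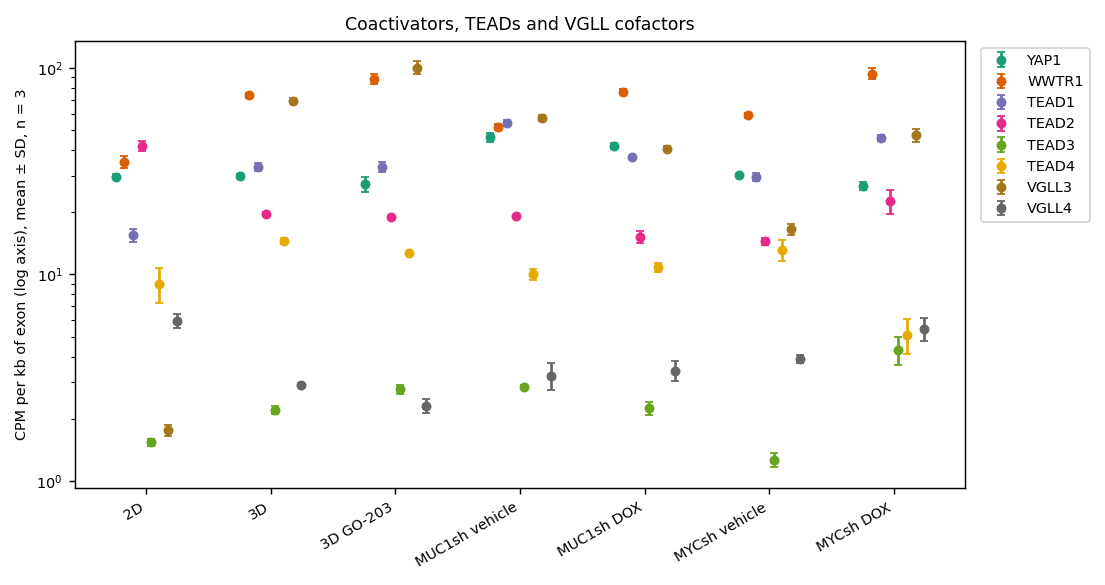
Mean level of YAP1, WWTR1 and their TEAD and VGLL partners in the 7 groups, in CPM per kb of exon on a log axis, with bars for the SD of 3 libraries. VGLL3 runs from 1.76 CPM per kb in 2D cells to 100 with GO-203, while YAP1 stays between 26.9 and 46.1.

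CCN1 and CCN2, formerly CYR61 and CTGF, encode secreted matrix proteins of 1 family and are the most used readouts of YAP activity. They moved in opposite directions on MUC1 silencing and between 3D and 2D cells, and in the same direction with GO-203 and on MYC silencing. CCN1 was read at 196, 161 and 136 CPM in 2D cells and at 323, 305 and 346 CPM in 3D cells, so every 3D library was higher. CCN1 was upregulated in 3D vs. 2D cells by 0.98 on the log2 scale (SE 0.10, adjusted p = 2.16e-07). CCN2 went from 262, 242 and 230 CPM in 2D cells to 32.3, 31.5 and 34.6 in 3D cells, and it was downregulated with a log2 fold change of -2.90 (SE 0.07, adjusted p = 1.82e-15). Against vehicle tet-MUC1shRNA mammospheres in place of the 3D libraries, the value for CCN2 was only -0.39 (adjusted p = 0.000359).

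With GO-203, CCN1 was read at 399, 393 and 413 CPM, above all 3D libraries, for a log2 fold change of 0.34 (SE 0.05, adjusted p = 8.35e-05). CCN2 was at 56.5, 55.7 and 62.2 CPM and rose by 0.86 (SE 0.06, adjusted p = 5.36e-10), again without overlap. Both secreted targets were thus higher under the inhibitor, and CCN2 remained well below its 2D level.

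MUC1 silencing moved them apart. CCN1 went from 245, 275 and 260 CPM with vehicle to 524, 530 and 468 with DOX, a log2 fold change of 0.99 (SE 0.05, adjusted p = 6.39e-13). CCN2 went from 217, 170 and 174 CPM to 155, 156 and 149, a log2 fold change of -0.26 (SE 0.06, adjusted p = 0.00168). The CCN2 groups do not overlap, but vehicle replicate 1 stands above the other vehicle libraries, and without it the value was -0.15 (adjusted p = 0.00439). With library size alone as the scaling the value was -0.09 and the call was lost (adjusted p = 0.192). MYC silencing lowered both genes. CCN1 went from 260, 256 and 242 CPM to 126, 153 and 144, a log2 fold change of -0.87 (SE 0.08, adjusted p = 5.77e-06). CCN2 went from 28.3, 28.9 and 28.4 CPM to 24.7, 21.7 and 22.6, a log2 fold change of -0.33 (SE 0.09, adjusted p = 0.00788), and neither gene's groups overlap.

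Per length, CCN2 exceeded CCN1 in 2D cells (105 against 44.5 CPM per kb of exon) and lay far below it in 3D cells (14.0 against 87.9). The CCN2 to CCN1 ratio within a library, which needs no scaling between libraries, was 2.11, 2.37 and 2.68 in 2D cells and 0.158, 0.163 and 0.158 in 3D cells. It was 0.224, 0.224 and 0.238 with GO-203. In tet-MUC1shRNA it was 1.40, 0.980 and 1.06 with vehicle and 0.467, 0.466 and 0.505 with DOX, so these vehicle mammospheres lay nearer to the monolayers than the untransduced mammospheres did. In tet-MYCshRNA it was 0.173, 0.178 and 0.185 with vehicle and 0.312, 0.225 and 0.249 with DOX. The 7 groups spanned 10.6 times in CCN2 level, and no neighbours in its order overlapped. CCN1 spanned 3.61 times. Of the exon bases of CCN2 (chromosome 6, 131948176 to 131951372, minus strand), 11.9% lie opposite the antisense gene LINC01013, while CCN1 (chromosome 1, 85580761 to 85584589, plus strand) shares none.

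**Figure D3:**
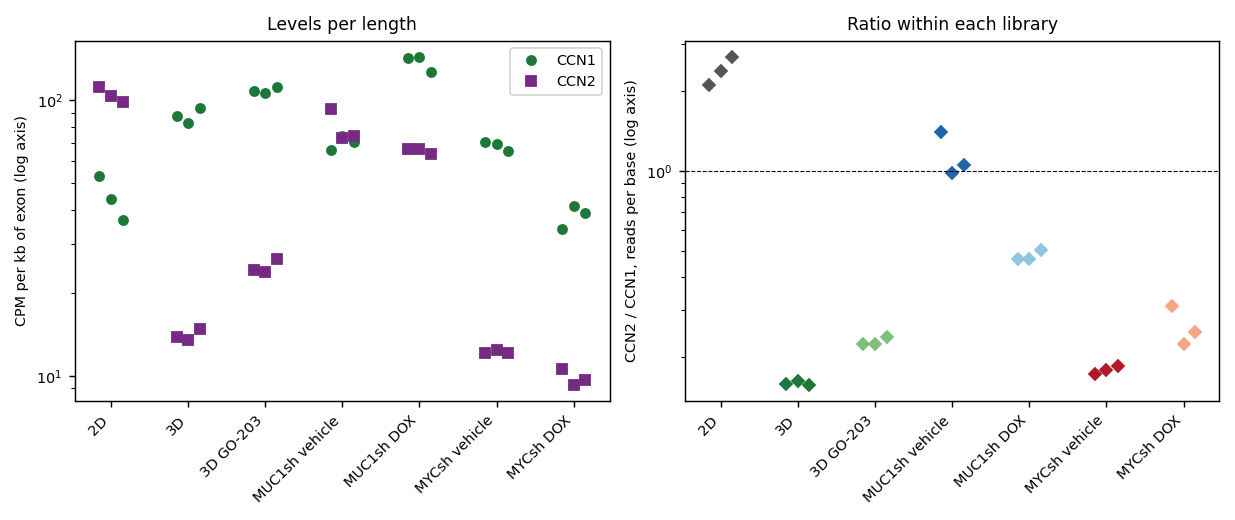
Levels of CCN1 and CCN2 in each library in CPM per kb of exon (left, log axis) and the CCN2 to CCN1 ratio within each library (right, log axis, dashed line at a ratio of 1). The ratio lies above 2 in the 2D libraries, near 1 in vehicle tet-MUC1shRNA and at 0.505 or less in all the other groups.

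Over the 21 libraries the genes most like CCN2 were TMEM268 (Pearson r = 0.962), LURAP1L (0.943), CEP43 (0.939), PRUNE1 (0.936) and STAM (0.935). Each had a higher mean in 2D and tet-MUC1shRNA cells than in 3D and vehicle tet-MYCshRNA cells, as did LURAP1L with 84.8 CPM in 2D, 34.5 in 3D, 80.0 in vehicle tet-MUC1shRNA and 21.2 in vehicle tet-MYCshRNA. Among the other tested members, the r with CCN2 was 0.688 for CRIM1, 0.628 for YAP1, 0.584 for AJUBA, 0.414 for AMOTL2, 0.145 for CCN1, 0.051 for TEAD4, -0.071 for LATS2 and -0.276 for TEAD1. These values describe libraries that fall into groups, and no test was made.

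ANKRD1 encodes a nuclear ankyrin repeat protein and is another common readout of YAP, but it was hardly expressed. It had 56 reads over all libraries, with 0 in 9 of them. The 2D libraries held 4, 0 and 2 reads, the 3D libraries 2 each, and the GO-203 libraries 2, 0 and 0. The vehicle tet-MUC1shRNA libraries held none and the DOX libraries 6, 8 and 16, while tet-MYCshRNA had 0, 8 and 2 with vehicle and 0, 0 and 2 with DOX. ANKRD1 did not pass the filter on low counts in any comparison and has no fold change here. Without that filter its adjusted p was 0.00036 for MUC1 silencing and between 0.553 and 0.984 for the other 3 pairs. The 12 values above 0 were all even, and 68.6% of all values from 1 to 9 in the table were even, as happens when both mates of a pair are counted, so these reads may stand for fewer fragments. That counting was not tested. A change of ANKRD1 was therefore not detectable outside MUC1 silencing at this depth, and within it the level stayed below 1 CPM.

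AMOTL2, the angiomotin that holds YAP in the cytoplasm and is itself a target, was read at 99.2, 87.7 and 75.6 CPM in 2D cells and at 57.6, 54.8 and 51.7 in 3D cells. The log2 fold change was -0.68 (SE 0.08, adjusted p = 2.71e-06), with no overlap. In mammospheres it was higher after each treatment. GO-203 gave 73.3, 77.0 and 71.9 CPM, an increase of 0.47 (SE 0.06, adjusted p = 1.15e-05). MUC1 silencing took it from 58.8, 53.2 and 53.0 CPM to 66.4, 71.3 and 66.2, an increase of 0.33 (SE 0.05, adjusted p = 2.47e-05). MYC silencing took it from 54.1, 48.5 and 45.3 CPM to 56.3, 76.5 and 75.1, an increase of 0.47 (SE 0.12, adjusted p = 0.00609) in which DOX replicate 1 lies near the highest vehicle library. Of the exon bases of AMOTL2, 2.89% are shared on the same strand with the pseudogene RPL39P5.

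LATS2, a kinase that phosphorylates YAP, was called higher in all 4 comparisons. It was read at 63.2, 60.7 and 60.1 CPM in 2D cells and at 83.9, 86.0 and 89.8 CPM in 3D cells, an increase of 0.49 (SE 0.06, adjusted p = 1.66e-06). With GO-203 it was at 97.2, 88.3 and 101 CPM, a log2 fold change of 0.18 (SE 0.06, adjusted p = 0.0439) that lost its call in 5 of 16 alternatives. MUC1 silencing took it from 106, 118 and 120 CPM to 130, 126 and 128, an increase of 0.18 (SE 0.05, adjusted p = 0.0037). MYC silencing took it from 82.7, 87.4 and 90.3 CPM to 111, 102 and 106, an increase of 0.27 (SE 0.07, adjusted p = 0.00573). The groups overlapped at these levels only with GO-203, where replicate 2 lay below the highest 3D library, and the changes among mammospheres were small.

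AJUBA encodes a LIM protein that binds LATS kinases and restrains them, and it had the widest range of the 9 tested genes. It was read at 56.0, 48.2 and 45.7 CPM in 2D cells and at 11.6, 10.5 and 10.5 CPM in 3D cells, for a log2 fold change of -2.21 (SE 0.09, adjusted p = 1.80e-12). MYC silencing lowered it from 12.5, 12.3 and 11.3 CPM to 1.61, 2.44 and 2.83, a log2 fold change of -2.40 (SE 0.18, adjusted p = 1.83e-06). In both comparisons the libraries are far apart. MUC1 silencing gave 9.91, 9.61 and 8.72 CPM after 8.41, 8.14 and 7.85, a log2 fold change of 0.24 (SE 0.10, adjusted p = 0.0413). GO-203 gave 12.2, 12.3 and 13.3 CPM, a log2 fold change of 0.25 (SE 0.10, adjusted p = 0.0790). These small increases lost their calls in 4 and in 9 of 16 alternatives. The mean of 49.99 CPM in 2D cells was 21.8 times that of 2.30 CPM in DOX tet-MYCshRNA.

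CRIM1, a membrane protein that binds BMPs, was at 312, 248 and 246 CPM in 2D cells and at 221, 228 and 217 CPM in 3D cells, for a log2 fold change of -0.28 (SE 0.08, adjusted p = 0.00533) in which 2D replicate 1 stands above the other 2D libraries. Without that library the value was -0.16 (adjusted p = 0.0268). GO-203 left it at 213, 204 and 231 CPM, a log2 fold change of -0.01 (SE 0.06, adjusted p = 0.955). MUC1 silencing gave 205, 200 and 198 CPM after 229, 211 and 226, a log2 fold change of -0.12 (SE 0.04, adjusted p = 0.0211) that lost its call in 5 of 16 alternatives, in 1 of them with the sign turned, and 1 was leaving out DOX replicate 2. MYC silencing gave 111, 126 and 110 CPM after 176, 180 and 172, a log2 fold change of -0.63 (SE 0.07, adjusted p = 3.02e-05), the clearest of its changes.

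**Figure D4:**
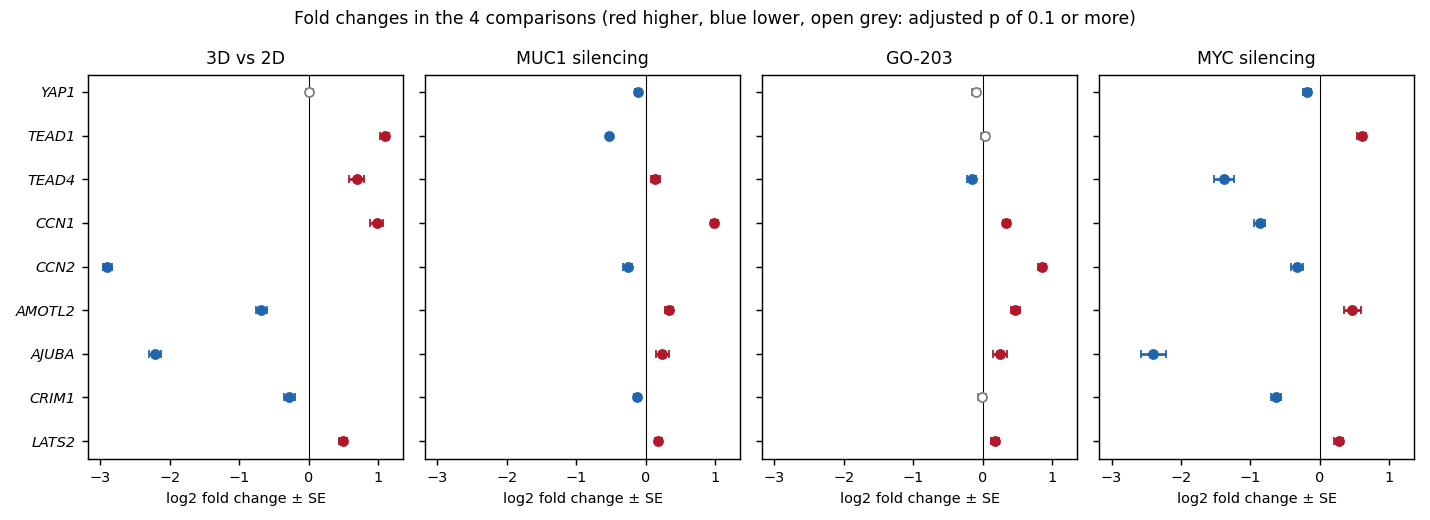
Log2 fold change with its SE for the 9 tested genes in the 4 comparisons (red higher, blue lower, open grey points for adjusted p of 0.1 or more). CCN2 and AJUBA lie furthest left in 3D vs. 2D cells, and AJUBA and TEAD4 on MYC silencing.

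The 3D vs. 2D comparison asks how the genes differ between serially passaged mammospheres and monolayers, which also differ in medium and serum. Attachment, medium, serum and passage cannot be told apart here. At an adjusted p below 0.1, 4 of the 9 tested genes were upregulated (TEAD1, TEAD4, CCN1 and LATS2) and 4 downregulated (CCN2, AMOTL2, AJUBA and CRIM1), while YAP1 did not pass the test. Of all 19190 genes tested, 32% were called higher and 31.7% lower, 63.7% in all, so 8 of 9 is read against a high share. Groups did not overlap for 8 of the 9, against 64.3% of all genes. Under a stricter rule that also needs an absolute log2 fold change above 1.5, CCN2 and AJUBA remained, where 16.2% of all genes did. The median of the 9 genes was 0.01, against -0.01 over all genes. When the vehicle tet-MUC1shRNA mammospheres took the place of the untransduced 3D libraries, the log2 fold change of CCN2 was -0.39 (adjusted p = 0.000359), YAP1 was higher by 0.63 (adjusted p = 2.25e-08), and TEAD4 lost its call (0.15, adjusted p = 0.256). TEAD1 and LATS2 were then higher than in 2D cells by 1.80 and 0.90. With the vehicle tet-MYCshRNA mammospheres CCN2 was lower by a log2 fold change of -3.10 and YAP1 was at 0.03 (adjusted p = 0.658), while CCN1 was at 0.63 and CRIM1 at -0.61. AJUBA was lower in each case, at -2.62 and -2.05.

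The other genes of the pathway in 3D vs. 2D cells came from lists of 48 genes. Of 6 tested coactivators, TEADs and VGLL cofactors, 3 rose and 3 fell. VGLL3, a TEAD cofactor, rose by 5.30 on the log2 scale (adjusted p = 5.98e-18) and WWTR1 by 1.06 (adjusted p = 1.35e-10), while TEAD2 fell by 1.10 (adjusted p = 1.31e-10). Of 20 tested upstream kinases and scaffolds, 6 rose and 10 fell, with AMOT, an angiomotin, at -4.35 (adjusted p = 4.79e-14) and FAT4, a protocadherin upstream of Hippo signalling, at -1.91 (adjusted p = 4.18e-12). The LIM protein WTIP fell by 2.10 (adjusted p = 1.81e-06). Of 16 other reported YAP/TAZ targets, 8 rose and 8 fell. F3, the tissue factor gene, had no read in the 2D libraries and a mean of 142 CPM in 3D cells, at least 2471-fold higher against a floor of 3 counts per library. TGFB2, a growth factor, fell by 3.20 (adjusted p = 5.21e-16), and CCDC80, a matrix protein, fell by 3.44 (adjusted p = 4.19e-16). Among the 4 other CCN genes, CCN5 rose by 4.33 (adjusted p = 4.57e-14) and CCN4 by 1.21 (adjusted p = 1.01e-05), and CCN3 fell by 1.61 (adjusted p = 3.50e-07). In all, 19 of 46 tested genes rose and 22 fell, with a median of -0.09, also with F3 at its bound. Over all genes tested, 32% were called higher and 31.7% lower.

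MUC1 silencing asks what goes with lowered MUC1 in mammospheres. All 9 tested genes were called, 5 higher (TEAD4, CCN1, AMOTL2, AJUBA and LATS2) and 4 lower (YAP1, TEAD1, CCN2 and CRIM1), where 30.7% of all 19220 genes were called higher and 31.6% lower, 62.2% in all. Groups did not overlap for 8 of them, against 62.8% of all genes, and TEAD4 was the exception. None passed the stricter rule, which 8.82% of all genes did. The median of the 9 genes was 0.14, against 0.02 over all genes. Scaling by library size alone moved the median of all genes from 0.02 to 0.19 and the calls over all genes from 5892 higher and 6070 lower to 7965 and 4404. Under it TEAD4, AMOTL2, AJUBA and LATS2 were higher by 0.30, 0.50, 0.40 and 0.35, and the signs of YAP1 and CRIM1 turned, both to 0.05 (adjusted p = 0.319 and 0.34), and TEAD1 was then the only one of the 9 called lower. Without vehicle replicate 3 or DOX replicate 1, 3 genes were called higher, since TEAD4 and AJUBA lost their calls.

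Of 5 tested coactivators, TEADs and VGLL cofactors, 1 rose on MUC1 silencing and 3 fell. WWTR1 rose by 0.59 (adjusted p = 8.59e-11), VGLL3 fell by 0.47 (adjusted p = 2.97e-09) and TEAD3 fell by 0.32 (adjusted p = 0.00977). Of 21 upstream kinases and scaffolds, 8 rose and 9 fell, among them WWC1 (KIBRA), a scaffold of LATS, at 1.45 (adjusted p = 2.25e-10), AMOT at -1.75 (adjusted p = 8.01e-09) and the MST1 kinase gene STK4 at -0.83 (adjusted p = 6.05e-13). Of the 16 other targets, 6 rose and 9 fell. DOCK5, a Rac exchange factor, rose by 1.61 (adjusted p = 2.79e-16) and TGFB2 by 1.57 (adjusted p = 2.76e-11), and ASAP1, an Arf GTPase-activating protein, fell by 1.57 (adjusted p = 4.09e-17). CCN4 rose by 1.22 (adjusted p = 2.20e-10) and CCN5 fell by 2.32 (adjusted p = 8.45e-11), the other 2 CCN genes not being called. In all, 16 of 46 rose and 22 fell, with a median of -0.08, where 30.7% of all genes were called higher and 31.6% lower.

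GO-203 asks about pharmacological inhibition of MUC1-C in untransduced mammospheres, and its control is the same 3D group that serves in the comparison with 2D cells. Of the 9 tested genes, 5 were called higher (CCN1, CCN2, AMOTL2, AJUBA and LATS2) and 1 lower (TEAD4), where 11.1% of all 18488 genes were called higher and 12.9% lower, 24.1% in all. Groups did not overlap for 6 when scaled over these 6 libraries alone, against 33.7% of all genes. None passed the stricter rule, which 0.757% of all genes did. CCN1, CCN2 and AMOTL2 kept their calls in every alternative but that rule, while those of TEAD4, AJUBA and LATS2 depended on the analysis. Without any 1 of 3D replicates 1 and 3 and GO-203 replicates 1 and 3 the TEAD4 call was lost. Without GO-203 replicate 1 or 3 only 3 genes were called higher, and without any other library 4. The median of the 9 genes was 0.18, against 0.02 over all genes.

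Of 5 tested coactivators, TEADs and VGLL cofactors, 3 rose under GO-203 and 1 fell. VGLL3 rose by 0.56 (adjusted p = 4.23e-08), TEAD3 by 0.35 (adjusted p = 0.0340), and VGLL4, a cofactor that competes with YAP for TEADs, fell by 0.30 (adjusted p = 0.00871). Of 20 upstream kinases and scaffolds, 1 rose and 6 fell, among them MAP4K4, a kinase of the Hippo pathway, at -0.69 (adjusted p = 9.70e-09), the angiomotin AMOTL1 at -0.44 (adjusted p = 1.32e-05) and WWC1 at -0.28 (adjusted p = 0.0838). Of the 16 other targets, 4 rose and 4 fell. CCDC80 rose by 1.03 (adjusted p = 8.01e-11), the RNA-binding protein gene RBMS3 by 0.996 (adjusted p = 2.89e-10), and NT5E, the CD73 ectonucleotidase, fell by 0.91 (adjusted p = 1.73e-10). CCN4 rose by 0.88 (adjusted p = 2.74e-06) and CCN5 by 0.65 (adjusted p = 8.56e-07), and CCN3 fell by 0.63 (adjusted p = 0.0636). In all, 10 of 45 rose and 12 fell, with a median of -0.01, where 11.1% of all genes were called higher and 12.9% lower.

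MYC silencing asks what goes with lowered MYC in mammospheres, here a partial reduction of its RNA. All 9 tested genes were called, 3 higher (TEAD1, AMOTL2 and LATS2) and 6 lower (YAP1, TEAD4, CCN1, CCN2, AJUBA and CRIM1), where 58.5% of all 19951 genes were, 30.3% higher and 28.1% lower. Groups did not overlap for any of the 9, against 59.7% of all genes. AJUBA passed the stricter rule, which 10.5% of all genes did. The median of the 9 genes was -0.33, against 0.01 over all genes.

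Of 5 tested coactivators, TEADs and VGLL cofactors, all rose on MYC silencing, led by TEAD3 at 1.76 (adjusted p = 3.07e-06), VGLL3 at 1.49 (adjusted p = 1.31e-07) and WWTR1 at 0.65 (adjusted p = 1.20e-05). This list leaves out the members, of which TEAD1 was called higher and YAP1 and TEAD4 were called lower. Of 21 upstream kinases and scaffolds, 6 rose and 8 fell, with WWC1 at -2.78 (adjusted p = 4.08e-07), its paralog WWC2 at -1.15 (adjusted p = 1.15e-06) and WTIP at 1.63 (adjusted p = 1.10e-05). Of the 16 other targets, 8 rose and 7 fell. TGFB2 rose by 2.33 (adjusted p = 1.61e-07), NUAK2, a kinase of the AMPK family, fell by 2.44 (adjusted p = 2.34e-06) and NT5E fell by 1.504 (adjusted p = 2.03e-08). CCN5 rose by 2.83 (adjusted p = 1.92e-07), CCN3 by 1.57 (adjusted p = 0.000185) and CCN4 by 1.52 (adjusted p = 4.52e-07). In all, 22 of 46 rose and 15 fell, with a median of 0.08, where 30.3% of all genes were called higher and 28.1% lower.

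**Figure D5:**
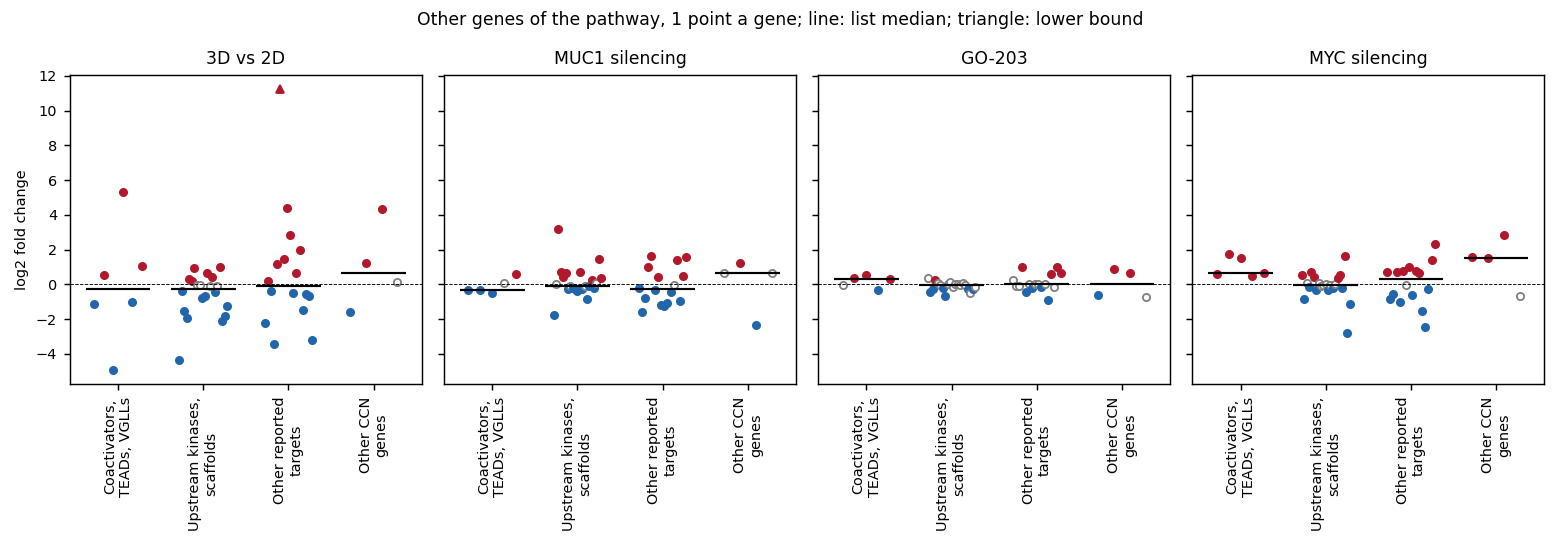
Log2 fold changes of the other pathway genes in the 4 comparisons, with 1 point a gene, grouped by list (red higher, blue lower, open grey points for adjusted p of 0.1 or more), a line for the list median and a triangle for the lower bound of F3. The coactivator, TEAD and VGLL list lies above 0 for all 5 tested genes on MYC silencing only, where 30.3% of all genes were called higher. It leaves out the members YAP1, TEAD1 and TEAD4.

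Responses to silencing of MUC1 and of MYC were set against each other in a test over 12 libraries, and the comparisons share none of them. Of the 9 genes, 4 had a higher response to MUC1 than to MYC silencing (TEAD4, CCN1, AJUBA and CRIM1) and 1 a lower response (TEAD1), where 26% of all 21585 genes had a higher and 26.9% a lower response, 52.9% in all. The CCN1 response differed by 1.84 on the log2 scale (SE 0.10, adjusted p = 8.09e-11) and the TEAD1 response by -1.14 (SE 0.07, adjusted p = 3.30e-10), and both genes moved in opposite directions in the 2 lines. The AJUBA response differed by 2.62 (SE 0.20, adjusted p = 6.45e-09), the TEAD4 response by 1.51 (SE 0.17, adjusted p = 6.80e-07) and the CRIM1 response by 0.49 (SE 0.08, adjusted p = 8.49e-05). For CCN2 the difference was 0.06 (SE 0.11, adjusted p = 0.718), for YAP1 0.05 (SE 0.07, adjusted p = 0.600), for AMOTL2 -0.15 (SE 0.14, adjusted p = 0.395) and for LATS2 -0.10 (SE 0.08, adjusted p = 0.346). Scaling by library size alone moved the median of all genes in this test from 0.05 to 0.25 and the calls from 5612 higher and 5808 lower to 7260 and 4602, and turned the signs of AMOTL2 and LATS2 (0.05 and 0.10, neither called). Under it YAP1 and CCN2 gained a call, at 0.26 (adjusted p = 0.00668) and 0.26 (adjusted p = 0.0566). Without DOX tet-MYCshRNA replicate 1, AMOTL2 gained one at -0.29 (adjusted p = 0.0183). The lines also differ in passage, so line, passage and silenced gene cannot be told apart.

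The difference between GO-203 and MUC1 silencing was taken in the same way over 12 libraries. GO-203 was given to untransduced cells and MUC1 was silenced in the tet-MUC1shRNA line, so line and treatment cannot be told apart. The control mean of CCN2 was 32.8 CPM in 3D cells and 187 CPM in vehicle tet-MUC1shRNA. Responses were higher with GO-203 for 2 of the 9 genes and lower for 2, where 24.1% of all 20829 genes were higher and 20.8% lower, 44.9% in all. CCN2 responded more to GO-203, by 1.12 (SE 0.10, adjusted p = 7.34e-10), having risen with the inhibitor and fallen on silencing. TEAD1 differed by 0.55 (SE 0.07, adjusted p = 1.57e-07), CCN1 by -0.65 (SE 0.07, adjusted p = 6.98e-08) and TEAD4 by -0.30 (SE 0.09, adjusted p = 0.00769), or by -0.46 with library size alone. For AMOTL2 the difference was 0.14 (SE 0.09, adjusted p = 0.240), for CRIM1 0.11 (SE 0.07, adjusted p = 0.228), and for YAP1, AJUBA and LATS2 it lay within 0.02 of 0 with SEs of 0.07, 0.13 and 0.08. With library size alone the median of all genes went from 0.003 to -0.15 and the calls from 5011 higher and 4342 lower to 3716 and 5956, and YAP1 and LATS2 were then called lower, at -0.14 (adjusted p = 0.0758) and -0.17 (adjusted p = 0.0891).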

How the data were processed

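Raw counts per gene, as the authors deposited them, came from RNA of BT-549 cells. Reads were aligned to GRCh38 with STAR (version 2.7.3a in the submitters' processing notes) and counted with featureCounts. The annotation release, strand setting and handling of multi-mapped reads are not given in the sources used here. Identifiers were matched to GENCODE symbols (42252 of 42339), and blank cells, which fill the same genes in whole blocks of libraries, were read as 0. The members and gene lists were chosen with earlier results of these data known.

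In R 4.3.3 with edgeR 4.0.16, each pair of groups was fitted on its own 6 libraries, and each difference between 2 responses on 12. Genes with low counts were removed by filterByExpr and TMM factors set the scaling. Genes were called at a Benjamini-Hochberg adjusted p below 0.1 in the quasi-likelihood test over all genes tested. Levels between genes are per kb of merged exons. Named genes were all 10 members and, from each other list, the 3 largest called changes with a mean of at least 1 CPM. Genes like YAP1 and CCN2 were ranked by Pearson r of log2 levels. On simulated counts, 98.5% to 100% of 200 genes changed by 2 on the log2 scale were recovered. Smaller changes were not simulated and the spread was the same for all genes, so this does not describe the small calls reported here. Alternatives were DESeq2 1.42.0, other scalings, filters, thresholds and samples, a replicate block, and leaving out each library. Library totals are given as a range with the levels. Protein sequences were not used here.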

Additional observations from a re-analysis of the deposited data

Results flagged for a closer look

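In 9 instances the response of a gene differed between 2 treatments by a test of the difference itself over 12 libraries (edgeR's quasi-likelihood test with Benjamini-Hochberg adjustment). Between MUC1 and MYC silencing, the difference of log2 fold changes was -1.14 for TEAD1, 1.51 for TEAD4, 1.84 for CCN1, 2.62 for AJUBA and 0.49 for CRIM1. TEAD1, TEAD4, CCN1 and AJUBA were called in opposite directions in the 2 lines, although the calls of TEAD4 and AJUBA on MUC1 silencing were lost in 9 and 4 of 16 alternatives. CRIM1 was called lower in both, further on MYC silencing, and its call on MUC1 silencing was lost in 5 of 16 alternatives, with its sign turned by library size alone. Between GO-203 and MUC1 silencing, it was 0.55 for TEAD1, -0.30 for TEAD4, -0.65 for CCN1 and 1.12 for CCN2. CCN1 rose in both of these, and further on MUC1 silencing. TEAD4 lost its call in 8 of 16 alternatives under GO-203 and in 9 of 16 on MUC1 silencing. Its difference lost the call in 2 alternatives, the stricter fold rule among them. In both differences the lines differ as well as the treatments, and line and treatment cannot be told apart.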

How the results depend on the processing

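Of 990 log2 fold changes of members under alternatives, 876 kept direction and side of the threshold, 73 lost a call, 5 gained one and 36 changed sign, of which 2 concerned called genes, and of 220 counts of members called 191 were within 1.5 times the main count, with 27 lower and 2 higher. Where not said otherwise, the cause was not tested. The fold rule of 1.5, stricter by construction, left 0 higher and 2 lower between 3D and 2D cells, 0 and 0 on MUC1 silencing, 0 and 0 under GO-203, 0 and 1 on MYC silencing, 0 lower in MUC1 minus MYC silencing, and 0 and 0 in GO-203 minus MUC1 silencing. On MUC1 silencing, library size alone gave 1 lower, at least 10 counts in every library 2 lower, and 1 fit of all 21 libraries 3 higher. Under GO-203, 0 were lower without the low-count filter, with all 21 libraries (3 higher) and at adjusted p below 0.05. In GO-203 minus MUC1 silencing, library size alone gave 4 lower and all 21 libraries 1. Leaving out 1 library gave 3 to 5 higher on MUC1 silencing, 3 to 4 higher and 0 to 1 lower under GO-203, and 1 to 2 lower in MUC1 minus MYC silencing.

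Signs changed near 0. YAP1 in 3D vs. 2D cells was -0.050 with library size alone and -0.013 with at least 10 counts. With library size alone YAP1 and CRIM1 on MUC1 silencing were 0.049 and 0.047, and AMOTL2 and LATS2 in MUC1 minus MYC silencing 0.053 and 0.10. In GO-203 minus MUC1 silencing, DESeq2 gave -0.0023 for YAP1 and -0.011 for AJUBA, RLE factors -0.0024 and -0.010, library size alone -0.14 and -0.15 (with AMOTL2 at -0.021 and CRIM1 at -0.047), no filter -0.010 and -0.019, and at least 10 counts -0.033 and -0.040. Leaving out a library gave -0.0094 to 0.052 for YAP1 in 3D vs. 2D cells, -0.0068 to 0.073 for TEAD1 and -0.046 to 0.020 for CRIM1 under GO-203, and -0.0095 to 0.17 for CCN2 in MUC1 minus MYC silencing. In GO-203 minus MUC1 silencing it gave -0.026 to 0.062 for YAP1, -0.044 to 0.064 for AJUBA and -0.039 to 0.040 for LATS2.

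Same-numbered libraries were at most weakly alike: their correlations ran from -0.176 to 0.081 and none reached 0.1. Under GO-203, 6 of 6 libraries correlated best with their own number, as a hint of pairing from the data. There the replicate block took the calls over all genes from 2059 higher and 2393 lower to 2331 and 2642. With the replicate block, 4 higher and 4 lower were called between 3D and 2D cells, 5 and 4 on MUC1 silencing, 5 and 1 under GO-203 and 3 and 6 on MYC silencing, and it changed no call of a member.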
